A study of Homo sapiens with 12 samples.

Results

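The G2 and mitosis genes are 40 genes that work in the second gap of the cell cycle and in cell division, given as a list of symbols and matched by Ensembl identifier among the 61860 genes of each count table. All 40 were found, all 40 passed the expression filter in both experiments, and they lie on 16 chromosomes. They were grouped by role into 6 cyclin, CDK1 and phosphatase genes, 7 mitotic kinases, 6 kinetochore and checkpoint proteins, 10 spindle motors and microtubule proteins, 6 genes of anaphase and cytokinesis, 3 chromosome proteins and 2 transcription factors.

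In dividing cells, cyclin B binds the kinase CDK1 in G2, and CDC25 phosphatases remove the inhibitory phosphates that WEE1 and PKMYT1 place on CDK1. Active CDK1, PLK1 and the Aurora kinases then drive chromosome condensation and spindle assembly, the spindle checkpoint holds cells until every kinetochore is attached, and CDC20 switches on the anaphase-promoting complex, which marks cyclin B and securin for destruction. Most of these genes are transcribed together late in the cycle: the DREAM complex represses them in resting cells, and MYBL2 and FOXM1, bound through the MuvB core to short promoter elements, activate them in G2. Their RNA is widely used as a sign of proliferation in prostate and other cancers.

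The cells were 22Rv1, an established human prostate cancer line that came from a xenograft, and RNA was sequenced in a study of ETS1, phosphorylated RB and the response to CDK4/6 inhibition. There were 4 groups of 3 libraries, all from 22Rv1 cells grown in RPMI medium with serum: siRNA against ETS1, its controls, siRNA against the zinc finger gene ZNF783, and a separate set of controls. The labels do not name the siRNA given to the controls, and the siRNA sequences and the time of harvest are not given in the sources used here. No drug is named for any of these libraries. All groups are the same cell line, and a control group was made for each siRNA.

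Each library held between 13518177 and 48996691 counts assigned to genes. ETS1 was not measurable as a check of its own siRNA: replicates 1 to 3 held 0, 3 and 0 of its reads after ETS1 siRNA and 0, 1 and 0 in that experiment's controls, and 0, 1 and 1 after ZNF783 siRNA with 1, 0 and 1 in the controls. ZNF783 stood at 28.7, 27.6 and 27.7 CPM (counts in 1e+06, with library sizes adjusted by edgeR's TMM factors) with its own siRNA and at 33.6, 34.7 and 35.7 CPM in the controls, 80.5% of the control level (log2 fold change -0.31 ± 0.0553 SE, adjusted p = 2.46e-05 by edgeR's quasi-likelihood test). It was at 12.1, 18.8 and 18.7 CPM with ETS1 siRNA against 21.0, 21.6 and 22.4 CPM in those controls. That is 77.0% of the control level (-0.38, adjusted p = 0.258 by the same test over all 6 libraries of that experiment). Every ETS1 siRNA library lay below every control, replicate 1 furthest, so a lower ZNF783 level was not seen with its own siRNA alone. The summed level of 10 prostate epithelial markers lay between 3014 and 3321 CPM in all 12 libraries. The 12 markers of immune, endothelial, stromal and basal cells summed to 17.0 to 33.4 CPM, of which COL1A1 gave 12.3 to 27.8 CPM, with CD3E at 0 counts in every library and PECAM1, KRT5 and KRT14 at no more than 4 counts.

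ETS1 siRNA replicate 1 stood apart from the other libraries. A chi-square comparison of counts gave 35.6 and 34.3 per degree of freedom between it and replicates 2 and 3, whereas every other pair within a group lay between 1.32 and 2.70. It was the highest of the 6 libraries of its experiment for 25 of the 40 G2 and mitosis genes and the lowest for 9, where over all genes tested it was highest for 35.8% and lowest for 37.2%. Results with ETS1 siRNA are therefore given with and without it.

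In control cells the G2 and mitosis genes were highly expressed. Per kilobase of exon, the median member stood at 33.1 CPM in the ETS1 controls, against 3.44 CPM for all genes tested with a known length, and at 37.7 against 4.58 CPM in the ZNF783 controls. In both sets of controls 38 of the 40 lay above the median of all genes. CCNB1, which encodes cyclin B1, was the highest in both, at 95.3 ± 0.665 CPM per kilobase (SD, n = 3) in the ETS1 controls and 102 ± 3.62 in the ZNF783 controls. TOP2A, the topoisomerase that untangles sister chromatids, followed in the ETS1 controls at 91.5 ± 2.64 CPM per kilobase, and CDC20, the activator of the anaphase-promoting complex, at 82.9 ± 1.23. UBE2C, the ubiquitin-conjugating enzyme of that complex, was at 82.6 ± 2.71 CPM per kilobase, so its spread overlapped that of CDC20. CDC25C, the phosphatase that activates CDK1 at mitotic entry, was the lowest apart from PRC1 and NUSAP1, at 5.52 ± 0.0440 CPM per kilobase.

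**Figure D1:**
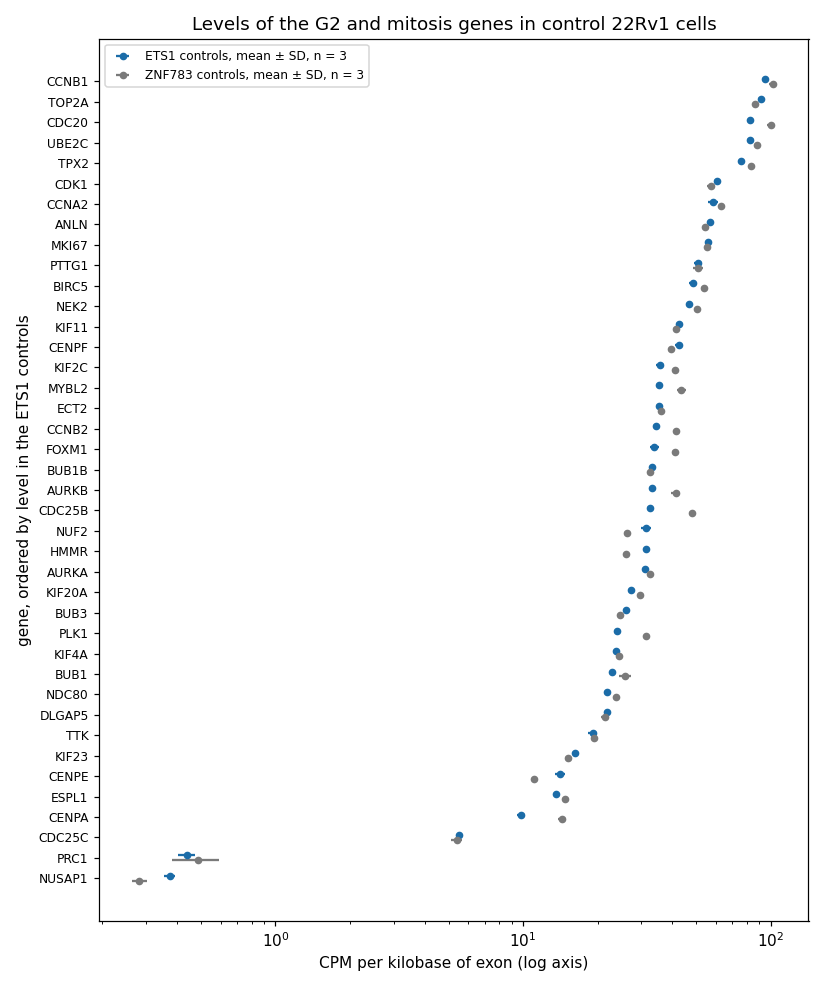
Level of each G2 and mitosis gene in control cells, in CPM per kilobase of exon on a log axis, as mean ± SD of 3 libraries for the ETS1 controls (blue) and the ZNF783 controls (grey). CCNB1 is the highest in both sets of controls, and PRC1 and NUSAP1 lie far below the other 38 genes.

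PRC1, which bundles the microtubules of the spindle midzone, stood at only 0.440 ± 0.0344 CPM per kilobase in the ETS1 controls, and NUSAP1, another microtubule-binding protein, at 0.374 ± 0.0192. Each shares exons on its own strand with a second annotated gene. The gene that shares exons with PRC1 (ENSG00000284946) had 13.7 to 19.0 CPM, while the one that shares exons with NUSAP1 (ENSG00000285920) had 0 counts in every library. The file header shows no option for reads that fall on more than one gene, so the values of PRC1 and NUSAP1 are uncertain. CENPA and BUB1B also share exons on their own strand with a neighbour. Counting did not use the strand, so reads of NUF2, KIF2C, CCNA2, KIF20A, CDC25C, HMMR, ANLN, KIF4A, FOXM1, KIF23, PRC1 and PLK1 cannot be told apart from those of an overlapping gene on the other strand where their exons overlap.

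Promoter sequence is shown for 4 genes whose results differ below: CCNB1 and CDK1, the core of the mitotic kinase, PLK1, and MYBL2, the activator. PLK1 was called in opposite directions with the siRNAs when ETS1 siRNA replicate 1 was left out. RefSeq windows of GRCh38.p14 from 250 bases before to 50 bases after a transcript start were available for 33 of the 40 genes, 43 windows in all. The cell cycle homology region, written here as TTTGAA or TTCGAA on either strand, was present in 27 of the 43 windows (62.8%) and in 16.4% of all 35116 windows of that length. The CCAAT box, searched as CCAAT on either strand, was present in 31 windows (72.1%, against 34.6% of all) and at least 2 times in 18 (41.9%, against 10.8%). An E2F-type site, GGCGGGAA on either strand, was present in 2 windows (4.65%, against 3.16%). These matches are descriptions of the letters, not of binding, and were searched in a window chosen by position alone. The first of the 2 CDK1 windows is shown. The other, not shown, holds 3 matches of the cell cycle homology letters and 2 of CCAAT. Capitals mark the cell cycle homology region and CCAAT letters, read 5′ to 3′ on the plus strand.
The window of CCNB1 (chr5:69166900-69167199) holds CCAAT at positions -87 and -55 from the start:
CCNB1: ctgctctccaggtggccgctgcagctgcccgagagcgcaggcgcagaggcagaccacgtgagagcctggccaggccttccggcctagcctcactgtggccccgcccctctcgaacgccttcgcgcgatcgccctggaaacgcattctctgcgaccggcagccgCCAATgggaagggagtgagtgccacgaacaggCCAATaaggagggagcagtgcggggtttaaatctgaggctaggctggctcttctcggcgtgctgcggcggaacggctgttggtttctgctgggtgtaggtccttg
The window of CDK1 (chr10:60778081-60778380) holds TTTGAA at -161 and CCAAT at -150:
CDK1: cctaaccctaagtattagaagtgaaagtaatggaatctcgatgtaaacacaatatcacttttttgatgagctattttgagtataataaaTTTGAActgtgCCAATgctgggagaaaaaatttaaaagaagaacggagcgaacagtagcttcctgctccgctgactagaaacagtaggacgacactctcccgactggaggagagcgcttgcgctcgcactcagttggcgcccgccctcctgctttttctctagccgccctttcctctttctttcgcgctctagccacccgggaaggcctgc
The window of PLK1 (chr16:23678639-23678938) holds CCAAT at -73 and TTTGAA at -29:
PLK1: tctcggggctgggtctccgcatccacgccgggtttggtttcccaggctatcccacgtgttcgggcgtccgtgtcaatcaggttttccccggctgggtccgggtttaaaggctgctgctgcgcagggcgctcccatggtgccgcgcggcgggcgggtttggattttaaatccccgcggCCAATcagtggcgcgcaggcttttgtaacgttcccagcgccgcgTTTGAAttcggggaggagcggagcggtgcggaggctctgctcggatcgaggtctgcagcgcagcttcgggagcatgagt
The window of MYBL2 (chr20:43666864-43667163) holds none of these letters:
MYBL2: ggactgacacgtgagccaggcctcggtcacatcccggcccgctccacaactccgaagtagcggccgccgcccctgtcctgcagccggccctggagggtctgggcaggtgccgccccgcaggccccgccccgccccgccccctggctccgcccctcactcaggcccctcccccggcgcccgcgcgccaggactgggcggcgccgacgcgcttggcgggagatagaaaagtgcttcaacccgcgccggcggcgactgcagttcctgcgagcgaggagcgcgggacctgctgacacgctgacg

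With ZNF783 siRNA most G2 and mitosis genes rose by a small amount. Of the 40, 29 were called higher and 1 lower (edgeR's quasi-likelihood test, Benjamini-Hochberg adjusted p below 0.05 over all genes), where 25.1% of all 17630 genes tested were called, 11.3% higher and 13.8% lower. The median log2 fold change of the 40 was 0.20, against 0.0017 for all genes. In 32 of the 40 the siRNA libraries did not overlap the controls, 31 of them higher and 1 lower, where 38.2% of all genes did not overlap, 18.3% higher and 19.8% lower. The median member lay 0.20, 0.18 and 0.19 above the control mean on the log2 scale in ZNF783 siRNA replicates 1 to 3, so all 3 libraries carried the shift to a like extent. The measurements are from bulk RNA, in which more cells in G2 or mitosis and more RNA per such cell cannot be told apart.

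**Figure D2:**
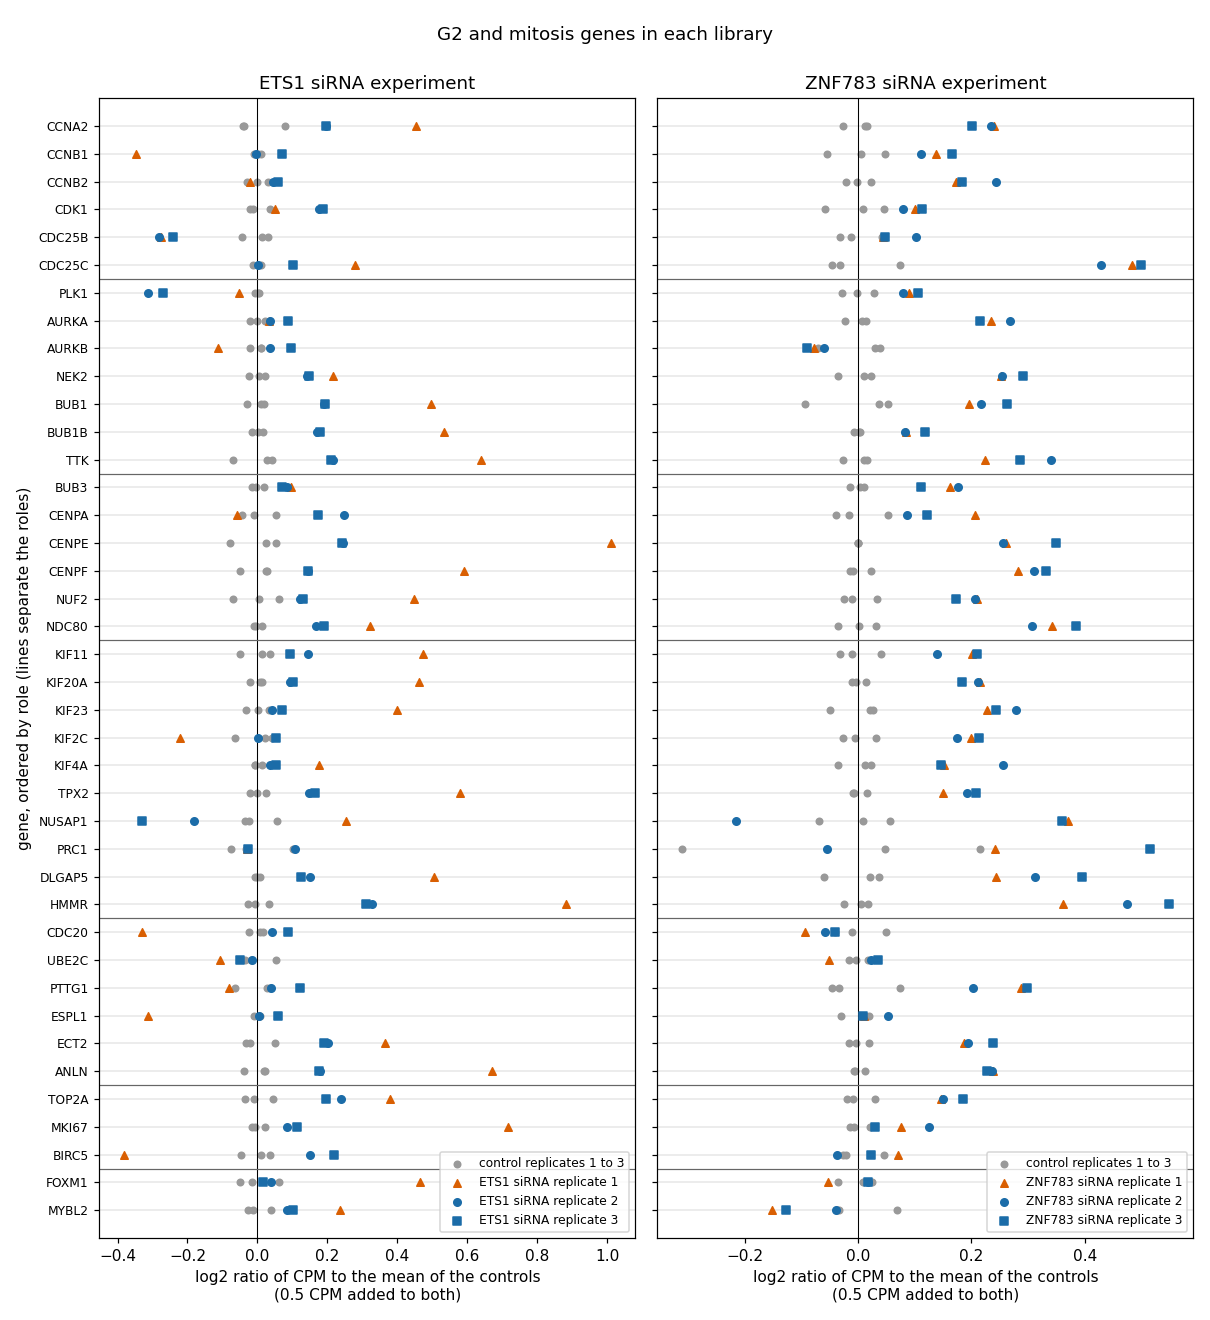
Log2 ratio of each gene's CPM in each library to the mean of its controls, with 0.5 CPM added to both, for the ETS1 experiment (left) and the ZNF783 experiment (right), whose x axes differ in range. Grey points are controls and coloured points siRNA libraries. ETS1 siRNA replicate 1 (orange, left) lies far from replicates 2 and 3 for many genes, whereas the 3 ZNF783 siRNA libraries lie close together.

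Among the cyclins, CDK1 and its phosphatases, 5 of 6 rose with ZNF783 siRNA. CCNA2, cyclin A2, stood at 208, 208 and 203 CPM in the siRNA replicates 1 to 3 and at 178, 173 and 178 CPM in the controls (0.23 ± 0.0289, adjusted p = 5.06e-08). CCNB1 was at 286, 281 and 292 CPM against 269, 250.5 and 261 CPM (0.14 ± 0.0283, adjusted p = 0.000207). Both cyclins were higher in every siRNA library than in every control, CCNB1 by the narrower margin. CDC25C (chromosome 5, 138285265 to 138338355, minus strand, GRCh38) had the highest fold change of the 40, at 25.3, 24.4 and 25.6 CPM against 17.4, 19.0 and 17.6 CPM (0.48 ± 0.0671, adjusted p = 3.15e-07). It is also one of the least abundant of them. CDK1 was at 242, 239 and 244 CPM against 227, 217 and 233 CPM (0.10 ± 0.0288, adjusted p = 0.01), the smallest change called in this role. CDC25B, the phosphatase that starts CDK1 activation in G2, was at 214, 223 and 215 CPM against 203, 214 and 206 CPM and did not pass (0.07 ± 0.0291, adjusted p = 0.0941), although its lowest siRNA library lay just above its highest control.

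Of the 7 mitotic kinases 6 rose. NEK2, a kinase of centrosome separation, stood at 186, 186 and 191 CPM with ZNF783 siRNA and 159, 152 and 157 CPM in the controls (0.27 ± 0.0298, adjusted p = 3.13e-09). TTK, the kinase at the head of the spindle checkpoint, was at 103, 112 and 108 CPM against 86.7, 89.4 and 89.0 CPM (0.28 ± 0.0363, adjusted p = 6.07e-08). AURKA, the Aurora kinase of the spindle poles, was at 113, 115 and 111 CPM against 94.1, 96.1 and 96.5 CPM (0.24 ± 0.0340, adjusted p = 4.09e-07). None of these 3 kinases overlapped its controls. PLK1 was at 159.6, 158 and 161 CPM against 147, 153 and 149.7 CPM, a smaller rise (0.09 ± 0.0303, adjusted p = 0.0206) that missed the threshold without ZNF783 siRNA replicate 1 (0.0525), siRNA replicate 3 (0.0619) or control replicate 1 (0.0999), and in DESeq2's Wald test (0.0633). AURKB, the kinase of the chromosomal passenger complex, did not pass: 87.7, 88.8 and 87.0 CPM overlapped the 94.6, 95.2 and 88.2 CPM of the controls (-0.07 ± 0.0370, adjusted p = 0.146).

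Kinetochore and checkpoint proteins rose in 5 of 6 cases, and CENPF had the smallest adjusted p of the 40. CENPF (chromosome 1, 214603195 to 214664588, plus strand), a large outer kinetochore protein, gave 562, 573 and 581 CPM against 459, 457 and 469.7 CPM (0.31 ± 0.0250, adjusted p = 4.84e-13). NDC80, the microtubule-binding subunit of the complex that bears its name, was at 109, 106 and 112 CPM against 87.7, 85.9 and 83.7 CPM (0.35 ± 0.0356, adjusted p = 2.93e-10). CENPE, the kinetochore motor, was at 125, 125 and 133 CPM against 104, 104 and 104 CPM (0.29 ± 0.0336, adjusted p = 7.95e-09). All 3 were separated from their controls in every library, and the controls of CENPE hardly varied. CENPA, the centromeric histone H3 variant, did not pass (0.14 ± 0.0575, adjusted p = 0.0591).

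Spindle motors and microtubule proteins rose in 8 of 10 cases, the exceptions being PRC1 and NUSAP1, whose values are uncertain. HMMR (chromosome 5, 163460203 to 163491945, plus strand), a spindle-associated protein also known as a hyaluronan receptor, gave 132, 143 and 150.5 CPM in the siRNA libraries and 103, 101 and 104 CPM in the controls (0.46 ± 0.0374, adjusted p = 1.19e-11). DLGAP5, which stabilises spindle microtubules, was at 93.4, 97.9 and 104 CPM against 80.8, 79.9 and 75.6 CPM (0.31 ± 0.0394, adjusted p = 4.02e-08). KIF23, the kinesin of the midzone that acts in cytokinesis, was at 117, 121 and 118 CPM against 102, 96.4 and 101 CPM (0.25 ± 0.0340, adjusted p = 2.15e-07). The controls of each lay together below all siRNA libraries. The motors KIF11, KIF20A, KIF2C and KIF4A and the spindle factor TPX2 rose by 0.18 to 0.21.

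Of the genes of anaphase and cytokinesis, 3 of 6 rose. ANLN, the contractile ring scaffold, stood at 386, 386 and 384 CPM against 326, 326 and 330.5 CPM (0.23 ± 0.0256, adjusted p = 1.44e-09). PTTG1, securin, the inhibitor of separase, was at 125, 118 and 126 CPM against 99.6, 108 and 100.4 CPM (0.26 ± 0.0356, adjusted p = 1.71e-07). ECT2, which activates RhoA for the cleavage furrow, was at 225, 226 and 233 CPM against 197, 195 and 200.2 CPM (0.20 ± 0.0283, adjusted p = 2.91e-07). These 3 did not overlap their controls. CDC20 was at 191, 196 and 198 CPM against 202, 211 and 198 CPM (-0.06 ± 0.0295, adjusted p = 0.106), with 1 siRNA library just inside the range of the controls. UBE2C and ESPL1, the gene of separase, had log2 fold changes of -0.00093 and 0.02 and were not called.

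TOP2A and MKI67, the gene of the Ki-67 antigen used to score proliferation, rose, at 617, 619 and 634 CPM against 554, 549.7 and 569 CPM for TOP2A (0.16 ± 0.0247, adjusted p = 2.4e-06). MKI67 was at 750.1, 777 and 727 CPM against 705, 723 and 708 CPM (0.08 ± 0.0252, adjusted p = 0.0173). BIRC5, survivin, of the chromosomal passenger complex, did not pass (0.02 ± 0.0302, adjusted p = 0.66). The transcription factors did not rise. FOXM1 was at 194, 203 and 204 CPM against 196, 202 and 204 CPM, overlapping its controls (-0.0082 ± 0.0295, adjusted p = 0.876). MYBL2 (chromosome 20, 43667019 to 43716496, plus strand) was the single member called lower, at 109, 118 and 111 CPM against 118, 127 and 118 CPM (-0.11 ± 0.0354, adjusted p = 0.0234), with its highest siRNA library level with its lowest control. That call was lost when GC content and length were corrected for (-0.0022, adjusted p = 0.975), without ZNF783 siRNA replicate 1 (0.205), siRNA replicate 3 (0.0937) or control replicate 2 (0.185), with no expression filter (0.0580), in limma-voom with quality weights (0.0591) and in DESeq2's Wald test (0.106).

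The GC content of a gene's exons moved with these values. Over the 40 genes the ZNF783 log2 fold change had a Spearman correlation of -0.60 with GC content, and over the 17254 genes tested with a known GC content it was -0.38, both given as descriptions, since genes of 1 library set share that set's preparation. Members had a median GC content of 43.8% (35.3 to 60.5%), against 48.1% for genes tested with ETS1 siRNA. With GC content and length fitted out of the counts, 29 members were called higher and 0 lower, against 19.8% of all genes called, 8.58% higher and 11.2% lower, and the median log2 fold change was 0.16. CDK1 (0.01, adjusted p = 0.795), BUB1B (0.05, 0.251) and MYBL2 were no longer called, whereas CDC25B (0.16, 4.98e-06) and ESPL1 (0.09, 0.0142) then passed. Of the 30 called members 10 moved by over 1.5 times, 9 of them nearer to 0, among them CCNB1 (0.14 to 0.09), ECT2 (0.20 to 0.13) and TOP2A (0.16 to 0.09), while PLK1 moved away from 0 (0.09 to 0.16). The summed prostate epithelial markers also differed between the groups, at 3014 to 3086 CPM with ZNF783 siRNA and 3276 to 3319 CPM in the controls, and the 12 markers of other cell types summed to 26.9 to 29.3 against 31.8 to 33.4 CPM; their part in the result was not tested. In a fit of all 12 libraries, which shares the spread of ETS1 siRNA replicate 1, 8 members were called, all higher, where 4.21% of genes were called; in the same fit without that library the count was 30, where 22% of genes were called.

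With ETS1 siRNA no G2 and mitosis gene was called over all 6 libraries, while the 2 replicates that resemble each other differed from the controls in 23 of them. Over all 6 libraries edgeR called 0 of the 40 and 0.0461% of all 19542 genes tested, both at an adjusted p below 0.05. Of the 40, 19 had an unadjusted p below 0.05. The share of all genes at that unadjusted threshold is not given here or below, so such counts have no background beside them. DESeq2 called 3, HMMR and TOP2A higher and CDC25B lower, where it called 6.14% of genes. Limma-voom with quality weights, which gave replicate 1 a weight of 0.0931 against 1.24 to 1.98 for the other libraries, called 21, where it called 19.1% of genes. The fit of all 12 libraries called 13, where it called 9.57%. The siRNA and control libraries did not overlap for 26 of the 40 genes, 24 higher and 2 lower, where 35.3% of all genes did not overlap, 17.5% higher and 17.8% lower. The median member lay 0.27 above the control mean on the log2 scale in ETS1 siRNA replicate 1 and 0.10 and 0.11 in replicates 2 and 3.

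Without ETS1 siRNA replicate 1, 21 of the 40 were called higher and 2 lower, where 23% of all 20237 genes tested were called, 9.96% higher and 13% lower. The median log2 fold change was 0.09, against -0.0042 for all genes. With the GC and length correction added, 23 were higher and the same 2, PLK1 and CDC25B, lower, where 20.2% of genes were called, 8.35% higher and 11.9% lower. The counts without replicate 1 rest on 2 siRNA libraries, and the log2 fold changes below are given first without replicate 1 and then over all 6 libraries, where edgeR called no member. The correction for GC and length brought 12 of the 23 called members nearer to 0 by over 1.5 times, among them CENPE (0.24 to 0.12), HMMR (0.31 to 0.21), CDK1 (0.18 to 0.07), ECT2 (0.19 to 0.10) and TOP2A (0.21 to 0.14). Over all 6 libraries that correction took the median log2 fold change of the 40 from 0.16 to 0.08.

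PLK1 and CDC25B were the members that fell. PLK1 (chromosome 16, 23677656 to 23690367, plus strand, GRCh38), the kinase that drives mitotic entry, spindle assembly and cytokinesis, stood at 109.5, 91.3 and 94.1 CPM in ETS1 siRNA replicates 1 to 3 and at 113, 114 and 114 CPM in the controls (-0.30 ± 0.0329, adjusted p = 1.15e-10, and -0.21, 0.242 over all 6). Replicate 1 lay close below the controls and the other two clearly lower. CDC25B (chromosome 20, 3786772 to 3806121, plus strand) had 116, 116 and 119 CPM in the siRNA libraries and 142, 136 and 143 CPM in the controls (-0.27 ± 0.0323, adjusted p = 1.55e-09, and -0.27, 0.108 over all 6). Here replicate 1 lay with replicates 2 and 3, all of them below every control. With the GC and length correction CDC25B was -0.18 without replicate 1 and -0.11 over all 6, and PLK1 -0.23 and -0.08, with neither called over all 6. Of the other members in its role, CDK1 was at 246, 268 and 271 CPM against 235, 243 and 234 CPM (0.18 ± 0.0290, adjusted p = 3.21e-06, and 0.14, 0.263 over all 6), with replicate 1 nearest the controls. CCNB1 was at 191, 243 and 256 CPM against 245, 242 and 244 CPM (0.02 ± 0.0294, adjusted p = 0.615, and -0.08, 0.664 over all 6): replicate 1 was the lowest library of the 6 and the direction turned with it. CCNA2 rose without replicate 1 (0.19 ± 0.0318, adjusted p = 5.38e-06, and 0.29, 0.186 over all 6), and CCNB2 and CDC25C were not called.

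HMMR had the smallest adjusted p of the 40 without replicate 1. It stood at 228, 155 and 153 CPM in ETS1 siRNA replicates 1 to 3 and 126, 123 and 121 CPM in the controls (0.31 ± 0.0312, adjusted p = 6.5e-12, and 0.53, 0.178 over all 6). All siRNA libraries were above the controls, replicate 1 by far the most. The other spindle proteins called higher without replicate 1 were TPX2 (0.15 and 0.31 over all 6), DLGAP5 (0.13 and 0.27), KIF11 (0.11 and 0.25) and KIF20A (0.09 and 0.23). Each was larger over all 6 libraries, by over 1.5 times, but was not called there. NUSAP1 had the lowest estimate without replicate 1 (-0.37 ± 0.223, adjusted p = 0.253, and -0.15, 0.735 over all 6) at about 1 CPM and was not called.

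Among kinetochore proteins and checkpoint kinases replicate 1 often stood far above replicates 2 and 3. CENPE was at 269.8, 158 and 158 CPM against 136, 139 and 126 CPM (0.24 ± 0.0328, adjusted p = 9.29e-08, and 0.55, 0.244 over all 6), and TTK at 137, 102 and 102 CPM against 90.2, 89.4 and 83.5 CPM (0.21 ± 0.0346, adjusted p = 3.16e-06, and 0.37, 0.212 over all 6). In both genes replicates 2 and 3 were within 1 CPM of each other and above every control, and replicate 1 was far higher. CENPF (0.14 and 0.31 over all 6), NDC80 (0.17 and 0.23), CENPA (0.21 and 0.13) and NUF2 (0.12 and 0.24) were also called higher without replicate 1. So were BUB1 (0.19 and 0.30), BUB1B (0.17 and 0.30) and NEK2 (0.14 and 0.17), kinases of the checkpoint and the centrosome. AURKA was at 93.0, 93.1 and 96.5 CPM against 92.2, 89.5 and 90.8 CPM (0.05 ± 0.0337, adjusted p = 0.283, and 0.05, 0.569 over all 6) and, like AURKB and BUB3, was not called.

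TOP2A stood at 767, 695 and 675 CPM with ETS1 siRNA and 608, 585 and 575 CPM in the controls (0.21 ± 0.0281, adjusted p = 2.42e-08, and 0.27, 0.143 over all 6). MKI67 was at 1173, 757 and 773 CPM against 725, 711 and 707 CPM (0.09 ± 0.0271, adjusted p = 0.0086, and 0.33, 0.317 over all 6). All siRNA libraries of both genes were above every control, and for MKI67 replicate 1 was far above replicates 2 and 3. BIRC5 was at 141, 205 and 215 CPM against 189, 179 and 186 CPM (0.18 ± 0.0307, adjusted p = 8.56e-06, and 0.02, 0.95 over all 6), with replicate 1 below and replicates 2 and 3 above every control. Of the genes of cytokinesis, ECT2 was at 251, 224 and 222 CPM against 190.5, 202 and 192 CPM (0.19 ± 0.0300, adjusted p = 1.39e-06, and 0.25, 0.158 over all 6), and ANLN was also called higher without replicate 1 (0.17 and 0.36 over all 6). CDC20, UBE2C, PTTG1 and ESPL1 were not called.

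The 2 transcription factors were not called without replicate 1. MYBL2 was at 116, 104 and 106 CPM with ETS1 siRNA against 97.5, 96.6 and 101 CPM (0.08 ± 0.0331, adjusted p = 0.056, and 0.14, 0.28 over all 6), every siRNA library above every control. With the GC and length correction it was called higher (0.17 ± 0.0267, adjusted p = 4.07e-06). FOXM1 was at 229.6, 171 and 168 CPM against 174, 161 and 165 CPM (0.02 ± 0.0316, adjusted p = 0.715, and 0.19, 0.418 over all 6), replicates 2 and 3 lying inside the range of the controls. It too passed with the correction (0.08 ± 0.0265, adjusted p = 0.0281), as did CDC20, ESPL1 and AURKB, while DLGAP5, KIF11 and NUF2 no longer did. Over the 40 genes the log2 ratio of replicate 1 to replicates 2 and 3 had a Spearman correlation of -0.46 with GC content and 0.47 with exon length, and the log2 fold change one of -0.64 with GC content over all 6 libraries and -0.63 without replicate 1, again as descriptions. Over all genes tested with a known GC content the last 2 were -0.50 and -0.36. Summed prostate epithelial markers were at 3268 to 3277 CPM with ETS1 siRNA and 3289 to 3321 CPM in the controls, and the markers of other cell types at 17.0 to 19.8 and 18.4 to 20.5 CPM; their part in the result was not tested.

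**Figure D3:**
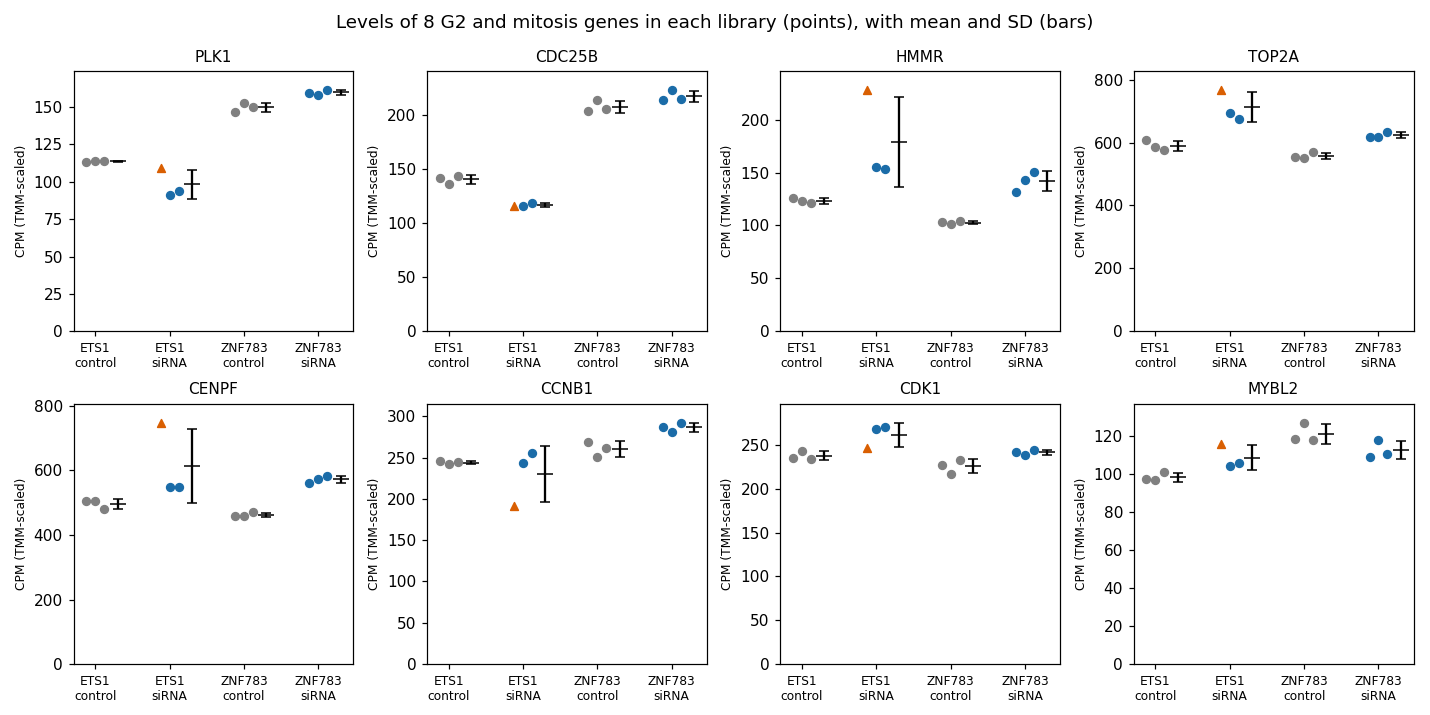
TMM-scaled CPM of 8 G2 and mitosis genes in each of the 12 libraries (points, replicates 1 to 3 from left to right within a group), with the mean ± SD of 3 libraries beside them. The orange triangle is ETS1 siRNA replicate 1, which lies apart from replicates 2 and 3 for HMMR, CENPF and CCNB1 but beside them for CDC25B.

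Each siRNA effect was taken against its own controls, and these effects were then compared. Each siRNA was used in its own experiment, so a difference between the siRNAs cannot be told apart from one between the experiments. Control levels also differed. CDC25B had a mean of 140 CPM in the ETS1 controls and 208 CPM in the ZNF783 controls, and PLK1 114 and 150 CPM. Other members differed as well, and not all in that direction. MYBL2 stood at 35.4 and 43.6 CPM per kilobase, and HMMR at 31.4 and 26.1. The GC content of CDC25B, PLK1 and MYBL2 was 59.3, 57.1 and 60.5%, and that of HMMR 36.7%. The part of GC content in these control differences was not tested. Of the members called higher with ETS1 siRNA without replicate 1, 19 of 21 (90.5%) were also called higher with ZNF783 siRNA, which is 65.5% of its 29. Over the 17548 genes tested in both, 633 were called higher in both, 32.1% of those higher with ETS1 siRNA and 31.8% of those higher with ZNF783 siRNA. Because 29 of the 40 members were called higher with ZNF783 siRNA, most of any 21 members would be expected among them. A link between the responses was not tested. In these fits, made without the GC and length correction, CDC20, ESPL1, FOXM1, NUSAP1, PRC1, AURKB and UBE2C were called in neither experiment. With that correction ESPL1 was called higher in both, with ETS1 siRNA replicate 1 left out. CDC20, FOXM1 and AURKB were then called higher with ETS1 siRNA alone. PLK1 was called lower with ETS1 siRNA without replicate 1 and higher with ZNF783 siRNA.

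The difference between the effects, ETS1 minus ZNF783, was tested in 1 fit. Over all 12 libraries it was called for CDC25B alone (-0.32 ± 0.0573, adjusted p = 0.014), where 1.68% of all genes were called. That call was lost with the GC and length correction (adjusted p = 0.0507), with the replicate number as a block (0.0771), and without any one of ETS1 control replicate 1 (0.0555) or 3 (0.0536), ZNF783 siRNA replicate 2 (0.0563) and ZNF783 control replicate 1 (0.0578) or 3 (0.0525). Without ETS1 siRNA replicate 1, 18 members were called, 3 higher and 15 lower, where 13.7% of all genes were called, 6.25% higher and 7.41% lower. Adding the correction for GC and length made it 19, where 16.6% of genes were called. PLK1 differed most firmly (-0.39 ± 0.0427, adjusted p = 6.94e-10), followed by CDC25B (-0.34 ± 0.0428, adjusted p = 4.55e-08). The others among the 8 with the smallest adjusted p were CDC25C (-0.44), CENPF (-0.17), KIF23 (-0.20), KIF2C (-0.18), AURKA (-0.19) and MYBL2 (0.19). MYBL2, BIRC5 (0.16) and CDC20 (0.12) were the 3 with a higher value for ETS1 siRNA.

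**Figure D4:**
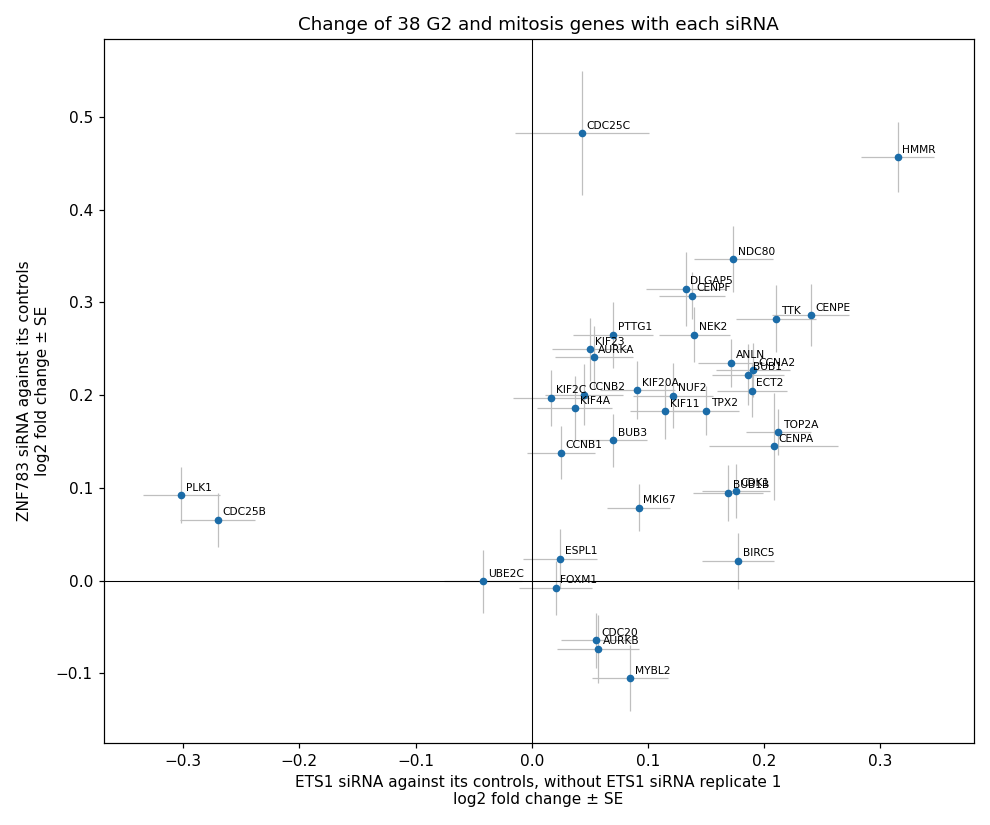
Log2 fold change ± SE of 38 G2 and mitosis genes with ETS1 siRNA, without its replicate 1 (x axis), and with ZNF783 siRNA (y axis), each against its own controls. PRC1 and NUSAP1, with uncertain values, are left out. Most genes lie in the upper right, PLK1, CDC25B and UBE2C lie left of 0, and MYBL2, AURKB, CDC20, FOXM1 and UBE2C lie below 0.

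The change was set beside the cell cycle homology letters, TTTGAA or TTCGAA, as a description. The median log2 fold change with ZNF783 siRNA was 0.20 for the 24 genes with them in a window, of which 18 were called higher and 0 lower, and 0.21 for the 9 without, of which 7 were called higher and 1 lower. With ETS1 siRNA without replicate 1 the medians were 0.12, with 14 higher and 2 lower, and 0.08, with 4 higher and 0 lower, and over all 6 libraries they were 0.20 and 0.14, with 0 called by edgeR in both. Of the promoters shown, PLK1 and CDK1 carry TTTGAA, and PLK1 fell and CDK1 rose with ETS1 siRNA without replicate 1. CCNB1 and MYBL2 hold neither TTTGAA nor TTCGAA, and with ZNF783 siRNA CCNB1 was called higher and MYBL2 lower. The MYBL2 call was lost with the GC and length correction and in the other settings named above.

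Genes of the same processes outside the 40 were examined as further lists, with ETS1 siRNA replicate 1 left out unless all 6 libraries are named. Over all genes tested, 11.3% were called higher and 13.8% lower with ZNF783 siRNA. With ETS1 siRNA without replicate 1 these shares were 9.96% and 13%. Of 24 other spindle motors and microtubule proteins, 14 were called higher and 2 lower with ZNF783 siRNA (median log2 fold change 0.14), and 11 higher and 0 lower with ETS1 siRNA without replicate 1 (0.10). ASPM, a spindle pole protein, rose with both (0.38, adjusted p = 1.93e-14, and 0.32, adjusted p = 9.08e-09), as did CKAP2, a microtubule-associated protein (0.35, adjusted p = 2.44e-12, and 0.19, adjusted p = 8.29e-07). Of the other kinetochore and checkpoint genes 8 of 28 were called higher and 3 lower with ZNF783 siRNA (0.09), led by KNTC1 (0.22, adjusted p = 1.85e-07), and 15 of 30 higher and 0 lower with ETS1 siRNA (0.11), led by ZW10 (0.30, adjusted p = 6.4e-08), both subunits of the complex that brings dynein to kinetochores. Among 21 genes of the passenger complex, condensins and cohesin, 11 were called higher and 1 lower with ZNF783 siRNA, among them the condensin subunit NCAPD2 (0.20, adjusted p = 3.92e-08), and 9 higher and 1 lower with ETS1 siRNA, among them SMC4 (0.21, adjusted p = 2.1e-07). The 17 genes of the anaphase-promoting complex and its inhibitor were called at near the share of all genes: 3 higher and 1 lower with ZNF783 siRNA, and 1 higher and 3 lower with ETS1 siRNA, against 25.1% and 23% of all genes in either direction.

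Of 14 other G2/M control genes, 5 were called higher and 1 lower with ZNF783 siRNA, and 6 higher and 1 lower with ETS1 siRNA without replicate 1. Over all genes, 25.1% and 23% were called in either direction. WEE1, the kinase that restrains CDK1, rose with ZNF783 siRNA (0.34, adjusted p = 4.91e-11), and the difference between the siRNA effects was called for it over all 12 libraries (-0.29, adjusted p = 0.0271). PKMYT1, the other inhibitory kinase, fell with ZNF783 siRNA (-0.13, adjusted p = 0.00425). CDKN3, a phosphatase that acts on cyclin-dependent kinases, rose with both (0.27, adjusted p = 1.52e-05, and 0.21, adjusted p = 8.19e-05). Over all 6 libraries of the ETS1 experiment edgeR called 0 genes in each of these 5 lists. At an unadjusted p below 0.05 there were 9 of the other spindle genes, 11 of the kinetochore genes, 4 of the passenger, condensin and cohesin genes, 1 of the anaphase-promoting complex and 5 of the G2/M control genes. The genes named with ETS1 siRNA had, over all 6, 0.52, adjusted p = 0.176 (ASPM), 0.36, adjusted p = 0.219 (CKAP2), 0.35, adjusted p = 0.116 (ZW10), 0.45, adjusted p = 0.24 (SMC4) and 0.36, adjusted p = 0.208 (CDKN3). DESeq2 called 1, 3, 0, 0 and 1 genes of these lists, all higher, where it called 6.14% of all genes. Limma-voom with quality weights called 10, 14, 6, 3 and 5, where it called 19.1%. With the GC and length correction the counts called higher with ZNF783 siRNA were 12, 6, 7, 1 and 3 in the same order of lists, where 8.58% of all genes were called higher. With ETS1 siRNA without replicate 1 they were 13, 10, 6, 1 and 6, where 8.35% were. The corrected ETS1 medians of the kinetochore list and of the passenger, condensin and cohesin list were 0.05 and 0.02.

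**Figure D5:**
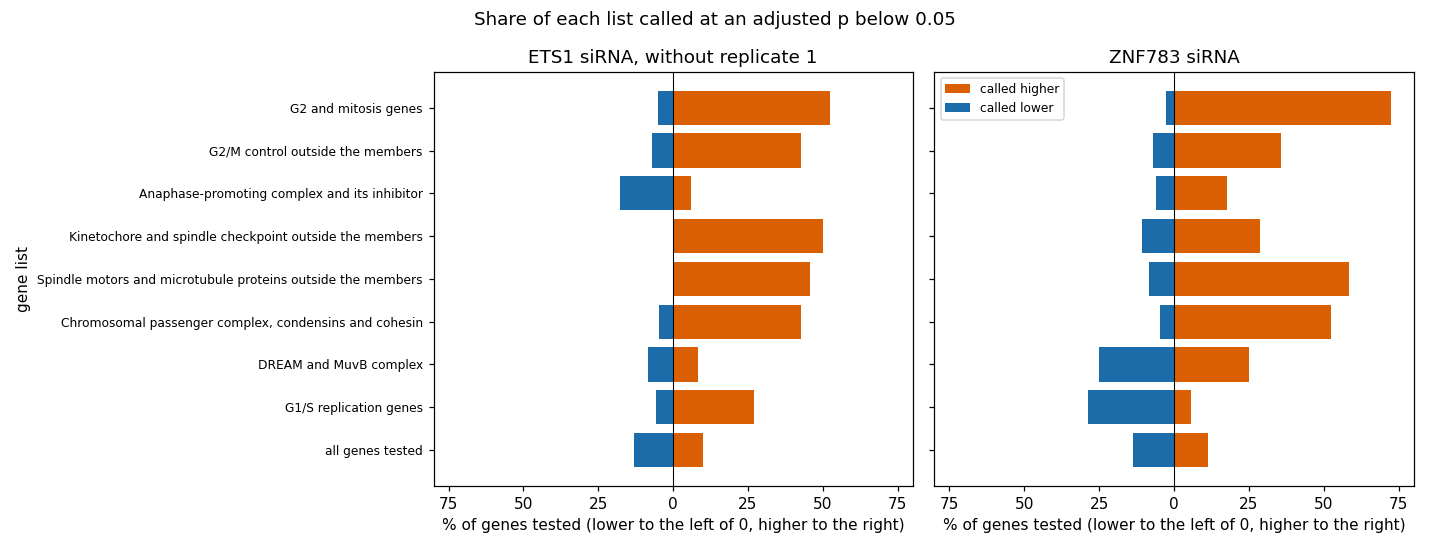
Percent of the genes tested in each list that were called higher (orange, right of 0) or lower (blue, left of 0) at an adjusted p below 0.05, with ETS1 siRNA without its replicate 1 (left) and with ZNF783 siRNA (right). The G2 and mitosis genes show the highest percent called higher in both panels, all genes tested are the bottom bars, and with ZNF783 siRNA 15 of 52 G1/S replication genes are lower and 3 higher.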

How the data were processed

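The authors deposited raw counts per gene, without normalization, in 1 table for each siRNA. Exon counts of read pairs were summed over each gene with featureCounts 2.0.1 and GRCh38 annotation release 107, per the file headers. No strand option appears there, although the kit was directional per the labels' protocols. The submitters' processing notes name hg38, and for the aligner no version is given in the sources used here. Of the 61860 genes in each table, 61757 received a symbol. No column was left unmapped.

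Groups came from the labels, which do not record whether the 3 libraries of a group were grown apart, so p-values measure the spread between these libraries only. Each siRNA was compared with its own controls by edgeR's quasi-likelihood test (edgeR 4.0.16, R 4.3.3) with TMM scaling, edgeR's expression filter and Benjamini-Hochberg adjustment over all genes tested, called at an adjusted p below 0.05. The difference between the siRNA effects was fitted on all 12 libraries. Values after ± are standard errors unless SD is written. Log2 fold changes are siRNA minus control. At these depths 3 counts are 0.0612 to 0.222 CPM.

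Alternatives used DESeq2 1.42.0, limma-voom (limma 3.58.1), other scalings and filters, the replicate number as a block, each library left out, and a GC and length correction fitted with mgcv 1.9.3 over the 97.2% and 97.9% of genes tested that had a GC value in the ETS1 and ZNF783 experiments. GC, exon lengths and gene coordinates came from an earlier GRCh38 annotation, GENCODE v29. The code was tested on simulated data. The members and lists were chosen with earlier results of these data known. All 40 genes could be named; per-library values were given for 8 genes chosen for their role, the 12 called genes with the smallest adjusted p with ZNF783 siRNA, up to 8 called with ETS1 siRNA without replicate 1, and the 3 highest and 3 lowest fold changes; other lists name up to 3 genes with the smallest adjusted p. A few more members were named after their values were seen.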

Additional observations from a re-analysis of the deposited data

Results flagged for a closer look

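CDC25B, the phosphatase that begins CDK1 activation, was the single G2 and mitosis gene for which a difference between the siRNA effects was called over all 12 libraries by edgeR. The ETS1 siRNA effect minus the ZNF783 siRNA effect was -0.32 on the log2 scale (SE 0.0573, adjusted p = 0.014 by edgeR's quasi-likelihood test). All 3 ETS1 siRNA libraries lay below their controls, and all 3 ZNF783 siRNA libraries lay above theirs, by a margin that did not pass the test by itself. The call was lost with the GC and length correction (adjusted p = 0.0507), with the replicate block (0.0771) and in 5 of the fits that left out 1 library, while no filter called 3 members and quality weights 11.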

How the results depend on the processing

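The shift of the G2 and mitosis genes with ZNF783 siRNA kept its direction under every alternative run. The count called was within 1.5 times of 30 in all of them but the fit of all 12 libraries, which called 8. Leaving out 1 library gave 27 to 31. PLK1 and MYBL2 were not the only members to lose a call. Without ZNF783 siRNA replicate 2, a setting named for neither of them, 1 member lost its call. The median log2 fold change was 0.2096 with library size alone, 0.2055 with upper-quartile factors, 0.2059 with no filter, 0.1614 with the GC and length correction and 0.1859 in the fit of all 12 libraries, and 0.19 to 0.20 with 1 library left out. With ETS1 siRNA the median stayed above 0 (0.0914 to 0.189 with 1 library left out, and 0.0804 with the GC and length correction, against 0.156), but the count of calls rested on replicate 1: leaving out 1 library gave 0 to 23, DESeq2 3, limma-voom with quality weights 21 and the fit of all 12 libraries 13. Without replicate 1, the GC and length correction gave 25, and alternatives chosen after seeing the data gave 22 (DESeq2), 23 (limma-voom), 27 (library size alone), 25 (DESeq2 size factors), 24 (replicate block) and 23 (fit of 11 libraries), where these called 21.5 to 24.6% of all genes. The difference between the effects was called for 3 members with no filter (2.30% of all genes), 11 with quality weights (12.3%), 0 with the GC and length correction (11 at an unadjusted p below 0.05), 19 without replicate 1 and with that correction, and 0 to 18 with 1 library left out; the cause was not tested.

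Same-numbered libraries showed no sign of deviating together (correlations 0.03, -0.04 and 0.06 in the ETS1 experiment, -0.03, 0.01 and -0.01 in the ZNF783 experiment). With 3 libraries in each group these values cannot decide whether the numbers pair the samples, and the labels do not say. With the replicate number as a block, 0 members were called with ETS1 siRNA, 30 with ZNF783 siRNA, and 0 for the difference, of which 7 had an unadjusted p below 0.05. The block with the GC and length correction gave a ZNF783 median of 0.1615.

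The sign turned for the following members, none of which was called with all libraries of its experiment. With ETS1 siRNA, quality weights gave KIF2C 0.022, CDC20 0.0531, CCNB1 0.0204 and ESPL1 0.0224. The GC and length correction gave CDC20 0.0726, BUB3 -0.0374, CDK1 -0.038, ESPL1 0.0309 and CCNB2 -0.0319, and with the replicate block CDC20 0.0703, BUB3 -0.0404, CDK1 -0.0491, ESPL1 0.0265 and CCNB2 -0.0338; the block alone gave BIRC5 -0.0015. Without ETS1 siRNA replicate 1 and with the correction, KIF2C was 0.032, CDC20 0.1172 and ESPL1 0.0951. With 1 library left out, KIF2C ran from -0.1091 to 0.0169, CDC20 from -0.1351 to 0.0556, CCNB1 from -0.1691 to 0.025, ESPL1 from -0.1475 to 0.0244, PRC1 from -0.032 to 0.0848, AURKB from -0.0391 to 0.0571, BIRC5 from -0.0939 to 0.1775, PTTG1 from -0.0243 to 0.0702 and NUSAP1 from -0.3718 to 0.0097. With ZNF783 siRNA and 1 library left out, FOXM1 ran from -0.022 to 0.0209, BIRC5 from -0.0043 to 0.05 and UBE2C from -0.0125 to 0.0325. UBE2C was 0.0015 with DESeq2 size factors, 0.0105 with library size, 0.0064 with upper-quartile factors, 0.0072 with no filter, 0.0034 with a filter of 1 CPM, 0.0028 in DESeq2 and 4e-04 with the block. FOXM1 was 0.0032 with library size, 0.0464 with the correction and 0.0506 with the block added, and CDC20 was 0.0051 and 0.0059 with these.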

Other observations

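Genes that act before G2 gave another picture with ZNF783 siRNA. Of 52 G1/S replication genes, 3 were called higher and 15 lower (median log2 fold change -0.02), where 11.3% of all genes were called higher and 13.8% lower. With ETS1 siRNA without replicate 1 more were called higher than lower, as for the G2 and mitosis genes. There 14 were higher and 3 lower (0.04), where 9.96% of all genes were higher and 13% lower. TK1, the thymidine kinase of S phase, fell with ZNF783 siRNA (-0.26, adjusted p = 4.39e-08 by edgeR's quasi-likelihood test), and MCM3, a subunit of the replicative helicase, fell as well (-0.16, adjusted p = 7.62e-05). CDC25A, the phosphatase that acts at G1/S and again later, and RRM1, a subunit of ribonucleotide reductase, rose with ETS1 siRNA without replicate 1 (0.25, adjusted p = 3.22e-07, and 0.14, adjusted p = 8.24e-05), and did not pass over all 6 libraries (0.15, adjusted p = 0.418, and 0.17, adjusted p = 0.176). Over all 6 libraries edgeR called 0 of the 52 with ETS1 siRNA, where it called 0.0461% of all genes. At an unadjusted p below 0.05 there were 6, a count with no background beside it. DESeq2 called 0, where it called 6.14% of all genes. Limma-voom with quality weights called 9 of the 52, where it called 19.1% of all genes, so its count was not above the share of all genes.

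Of the 12 genes of the DREAM and MuvB complexes, 3 were called higher and 3 lower with ZNF783 siRNA, where 25.1% of all genes were called, and 1 higher and 1 lower with ETS1 siRNA without replicate 1, where 23% were. With the GC and length correction the ZNF783 counts were 1 higher and 3 lower, and the list's median turned from 0.04 to -0.03. RBL1, the pocket protein p107, rose with ETS1 siRNA (0.40, adjusted p = 9.24e-11), and RBL2, p130, rose with ZNF783 siRNA (0.19, adjusted p = 1.05e-05). E2F4, their partner in repression, fell with both (-0.21, adjusted p = 3.89e-06, and -0.23, adjusted p = 1.31e-05). Over all 6 libraries RBL1 and E2F4 did not pass with ETS1 siRNA by edgeR (0.50, adjusted p = 0.1, and -0.19, adjusted p = 0.172).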
